A study of Rattus norvegicus with 24 samples.

Results

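The genes described here belong to the surrogate light chain and to the early B cell program, namely Igll1, Vpreb1, Vpreb3, Rag1, Rag2, Ebf1 and Dntt. Each of the 7 genes was found by name on the rat array with 1 probe, so they make up 7 of 25885 gene names and 7 of 30367 probes. The genes were chosen by measured values of these same arrays, Igll1 for its level in LPS-G1 against LPS-G0, and the values of all 6 groups were known when the genes were put together. Their values are therefore given as a description, with no test.

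Blood RNA of single male Sprague Dawley rats, obtained at 8 weeks of age, was measured after 6 weeks of diet. The diets were a semi-synthetic control diet (G0) or the same diet with oat beta-glucan of high (G1) or low (G2) molecular weight. LPS groups (LPS-G0, LPS-G1 and LPS-G2) received lipopolysaccharide at 10 mg per kg into the tail vein on repeated occasions to induce enteritis, and control groups (C-G0, C-G1 and C-G2) received saline. Each of the 6 groups had 4 arrays, and every array also held a common reference pooled from rats of the experiment. Blood is a mixture of cells, and fewer cells of a type and less RNA per cell cannot be told apart in these values.

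The pre-B cell makes an immunoglobulin heavy chain before it has a light chain. It tests that heavy chain with a stand-in, the surrogate light chain, in which the VpreB protein resembles a variable domain and lambda 5, the product of Igll1, a constant domain. Together with the heavy chain and the signalling chains Cd79a and Cd79b they form the pre-B cell receptor. The recombinase of Rag1 and Rag2 cuts antigen receptor genes, terminal transferase (Dntt) adds bases at the joins, and the transcription factor Ebf1 commits progenitors to the B lineage. These genes are known for their use in bone marrow, and Rag1, Rag2 and Dntt also in the thymus, while blood carries mainly mature B cells.

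The probes of the 4 genes with the most direct bearing on the pre-B cell receptor and its joins are shown because each level below is a reading of 1 such stretch. They are 60 bases long, written 5′ to 3′, and capitals mark a stop codon at the end of the probe.
Igll1: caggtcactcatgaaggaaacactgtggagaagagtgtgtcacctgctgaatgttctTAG
Vpreb1: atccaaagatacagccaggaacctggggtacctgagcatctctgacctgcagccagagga
Vpreb3: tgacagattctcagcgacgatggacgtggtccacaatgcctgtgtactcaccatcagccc
Dntt: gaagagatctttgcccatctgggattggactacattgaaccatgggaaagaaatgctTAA

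The Igll1 and Vpreb1 probes lay 14578 bases apart on chromosome 11, at chr11:86161946-86162005 and chr11:86147368-86147427 of rn4, both on the plus strand. The Vpreb3 probe was placed at chr20:13116499-13116558 on the minus strand. The Dntt probe was placed at chr1:246231457-246231516 on the plus strand. Rag1 (chr3:86781370-86781429, minus strand) and Rag2 (chr3:86771666-86771725, plus strand) were read by probes 9704 bases apart, and Ebf1 by a probe at chr10:30154688-30154747 on the plus strand. Igll1 and its neighbour Vpreb1 are relatives of the immunoglobulin lambda genes, so the probes were compared with all other probes of the array. The closest other probe shared 27 of 46 aligned bases with the Igll1 probe and belonged to Mcur1, an unrelated mitochondrial gene. No other probe shared 40 or more bases with any of the 7 probes. This says nothing about transcripts that have no probe on the array, or about stretches of a transcript that its own probe does not cover. Whether immunoglobulin lambda transcripts bind the Igll1 probe was not tested. The annotation of the array lists transcripts of both Vpreb1a and Vpreb1b for the Vpreb1 probe, so these related genes cannot be told apart by it.

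By the sample labels Cy3 marks the rat RNA, by the methods of the study Cy5 does. The channel that holds single rats should vary more between arrays than the one that holds a common pool. Of 7074 probes detected in both dyes throughout, 95.3% had the larger SD within groups in Cy3 (median 0.38 for Cy3, 0.26 for Cy5, log2). All ratios are therefore log2 of Cy3 over Cy5, rat RNA over reference, which is opposite in sign to the dyes given in the methods. With the other assignment every signed value below would change its sign. Correlations of the log ratios between 2 arrays over all probes ranged from −0.16 to 0.47, and the lowest was −0.60 over the probes detected on all 24 arrays. The arrays lay on 3 slides of 8, each with all 6 groups, but not evenly. Both G0 groups had 2 of 4 arrays on slide 1, both G1 groups on slide 2 and both G2 groups on slide 3. Diet and slide were thus partly tied. The number of probes well above background in Cy3 on an array ran from 7786 to 15385. Slide 3 had the most (median 13532, against 11202 and 10561.5 on slides 1 and 2). LPS-G0 replicates 3 and 4 are labelled as LPS in the title and as control in another field, and they were used as LPS-G0. Genes of blood cells such as Ptprc, Hbb, S100a8, Cd3e and Cd79b were well above background on 24 of 24 arrays.

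Detection separated the genes clearly. Vpreb3 was well above background in Cy3, by the flag of the scanner software on a share of at least 0.5 of its spots, on 23 of 24 arrays and Igll1 on 17. Ebf1 and Vpreb1 were above it on 8 and 7 arrays. Rag1, Rag2 and Dntt were above it on 0 of 24 arrays. In the reference channel, Igll1 and Vpreb3 were well above background on 24 arrays, Vpreb1 on 22, Dntt on 11, Ebf1 on 10, Rag2 on 5 and Rag1 on 3. More probes were well above background in Cy5 than in Cy3 on every array, from 14400 to 22449 per array in Cy5. The counts of the channels therefore do not compare RNA levels. The plot of detection by group shows that Igll1 reached 4 of 4 arrays only in LPS-G1 and LPS-G2, and had its lowest count in LPS-G0.

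**Figure D1:**
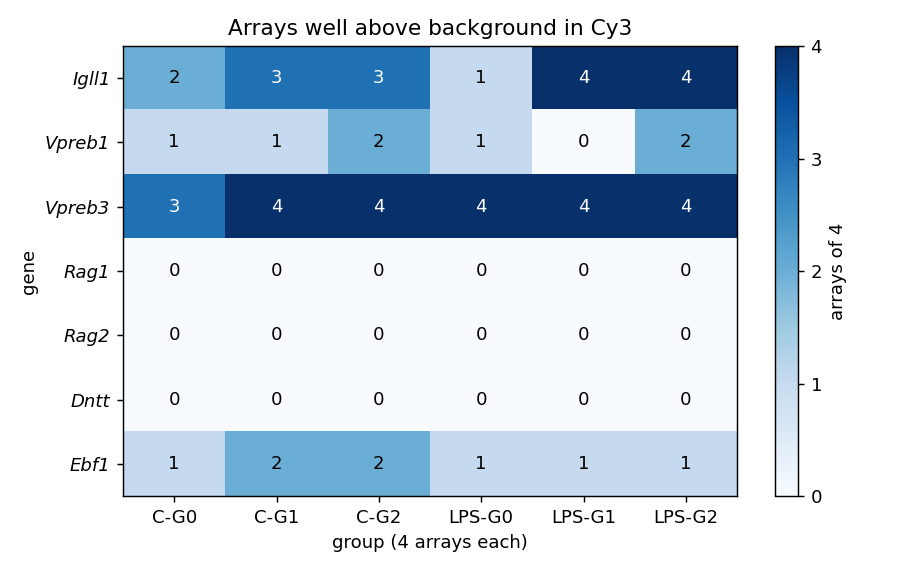
Number of arrays, of 4 per group, on which each gene (rows) was well above background in Cy3, by group (columns). Igll1 runs from 1 array in LPS-G0 to 4 in LPS-G1 and LPS-G2, Vpreb3 is at 3 or 4 in every group, and Rag1, Rag2 and Dntt are at 0 throughout.

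Igll1, the constant-like part of the surrogate light chain, was the gene with the clearest differences between groups. In LPS-G0 its log2 ratios were −0.71, −1.19, −0.93 and −1.06. In LPS-G1 they were −0.08, 0.95, 0.14 and 0.36, so that the lowest LPS-G1 array lay above the highest LPS-G0 array. In LPS-G2 they were −0.41, −0.36, 0.53 and 0.19, also without overlap with LPS-G0. The share of all tested probes whose groups did not overlap in this direction was 7.3% for LPS-G1 over LPS-G0 and 2.81% for LPS-G2 over LPS-G0. Because the gene was picked on these contrasts, nothing is read from its place among those probes.

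In the rats without LPS, Igll1 varied more. The C-G0 arrays gave −1.58, −0.55, −0.44 and 0.47, a range that covered every array of LPS-G0. The C-G1 arrays gave −0.99, −0.82, −0.29 and −0.73. The C-G2 arrays gave −0.79, 0.21, 1.02 and −0.11. C-G0 and C-G2 thus held both low and high arrays, while C-G1 and LPS-G0 held arrays below 0 only.

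Ordered by the mean log2 ratio, Igll1 was highest in LPS-G1 (0.34 ± 0.44, SD, n = 4), followed by C-G2 (0.08 ± 0.75), LPS-G2 (−0.01 ± 0.45), C-G0 (−0.53 ± 0.84), C-G1 (−0.71 ± 0.30) and LPS-G0 (−0.97 ± 0.20). No step between neighbours in this order exceeded the larger SD of the pair. The mean of LPS-G1 exceeded that of LPS-G0 by 1.31 ± 0.34 (SE of the fit) on the log2 scale, or 2.49-fold. The mean of LPS-G2 exceeded it by 0.96 ± 0.34, or 1.95-fold.

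LPS itself went with no common shift of Igll1 across the diets. On the control diet, LPS-G0 lay below C-G0 by a log2 difference of −0.44 ± 0.34, which ranged from −0.80 without C-G0 replicate 1 to −0.11 without C-G0 replicate 4. On the G1 diet, LPS-G1 lay above C-G1 by 1.05 ± 0.36, or 2.07-fold, and the groups did not overlap. The share of all tested probes without overlap in this direction was 1.33%. Because Igll1 was picked for its level in these LPS-G1 arrays, nothing is read from that share. On the G2 diet, LPS-G2 and C-G2 differed by −0.10 ± 0.36, a value that ranged from −0.39 to 0.22 on leaving out single arrays and was 0.16 from Cy3 alone. In the rats without LPS, the difference from C-G0 was −0.18 ± 0.36 for C-G1 and 0.61 ± 0.36 for C-G2, both with overlapping arrays. The first of these changed its sign, to 0.15, without C-G0 replicate 4, and the second fell to 0.26 without C-G0 replicate 1. With slide as a block they were −0.30 and 0.43. The contrasts that use LPS-G0, or C-G0, or LPS-G1 share those arrays.

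**Figure D2:**
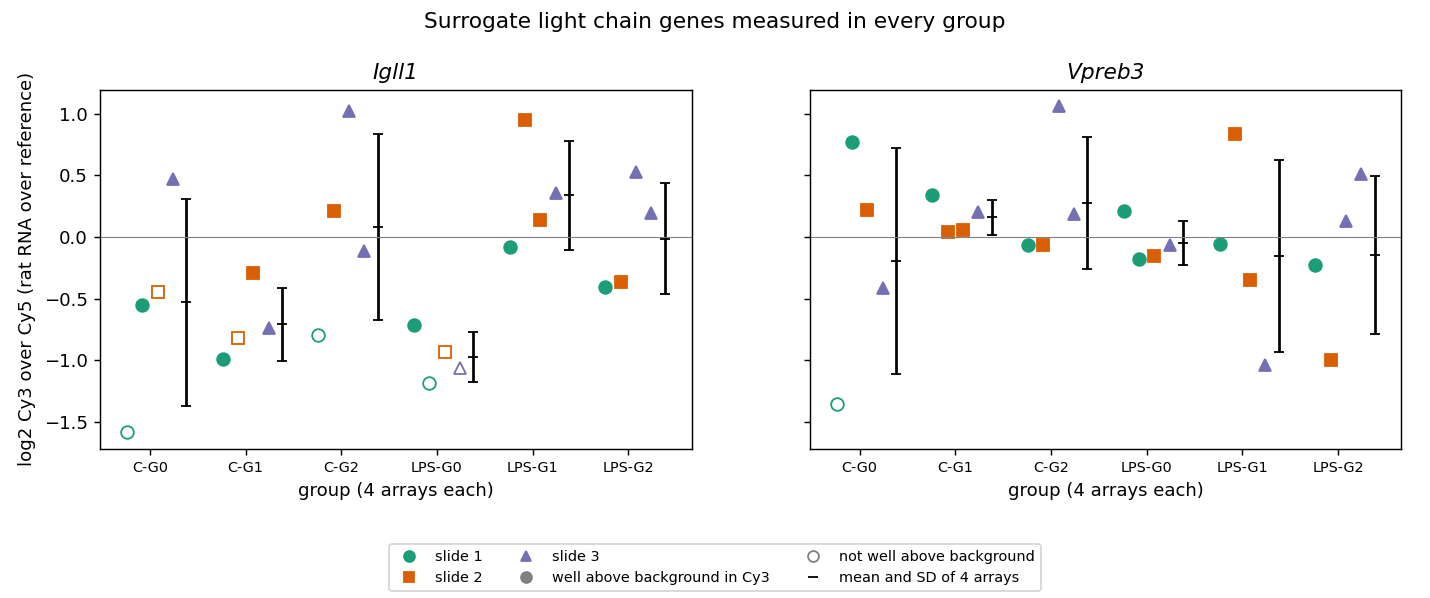
Log2 ratio of Cy3 over Cy5 of Igll1 (left) and Vpreb3 (right) on each of 24 arrays by group, with slide as symbol and filled symbols for arrays well above background in Cy3; black bars are the mean and SD of 4 arrays. All 4 LPS-G1 and all 4 LPS-G2 arrays of Igll1 lie above the 4 LPS-G0 arrays, and the groups of Vpreb3 overlap.

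The Igll1 values moved with the slide as well. The mean log2 ratio was −0.79 ± 0.47 on slide 1, −0.19 ± 0.61 on slide 2 and 0.08 ± 0.69 on slide 3 (SD, n = 8 arrays each). Within slides, LPS-G1 exceeded LPS-G0 by 0.87 on slide 1, 1.48 on slide 2 and 1.41 on slide 3. LPS-G2 exceeded LPS-G0 by 0.54, 0.57 and 1.42 on these slides. LPS-G1 exceeded C-G1 by 0.908, 1.1 and 1.09. LPS-G0 against C-G0 gave 0.12, −0.49 and −1.53, so the direction of that difference was not shared by the slides. With slide as a block, the differences of LPS-G1 and LPS-G2 from LPS-G0 were 1.22 and 0.79. Without the 2 LPS-G0 arrays whose labels disagree they were 1.29 and 0.94.

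Igll1 was dim on many arrays. Its processed Cy3 signal ranged from 43.2 to 185 with a median of 93.9, while the lowest signal of any probe well above background ranged from 17.4 to 46 per array. In LPS-G0, 1 of 4 arrays was well above background, and there on a share of 0.5 of its spots. With normexp background correction and an offset of 50, which is added to both channels, the LPS-G1 difference from LPS-G0 was 0.54 and the LPS-G2 difference 0.44. Igll1 passed the filter on dim probes through LPS-G1 and LPS-G2, where it was high.

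Vpreb3, a VpreB relative that binds newly made immunoglobulin chains in B cells, showed no such pattern. Its log2 ratios were 0.21, −0.18, −0.16 and −0.06 in LPS-G0. They were −0.05, 0.84, −0.35 and −1.04 in LPS-G1 and −0.23, −0.997, 0.13 and 0.51 in LPS-G2. Every LPS-G0 array lay within the range of LPS-G1, and also within that of LPS-G2.

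Without LPS, Vpreb3 gave −1.36, 0.77, 0.22 and −0.41 in C-G0, the widest spread of the 6 groups. The C-G1 arrays (0.34, 0.04, 0.05 and 0.21) were all above 0, and those of C-G2 were −0.07, −0.06, 1.06 and 0.19. The group means ran from 0.28 ± 0.54 in C-G2 through 0.16 ± 0.14 in C-G1, −0.05 ± 0.18 in LPS-G0, −0.15 ± 0.64 in LPS-G2 and −0.15 ± 0.78 in LPS-G1 to −0.20 ± 0.91 in C-G0 (SD, n = 4), with every group overlapping its neighbours.

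The Vpreb3 differences ranged from −0.43 to 0.47, with errors of 0.39 or 0.42. LPS-G1 and LPS-G2 differed from LPS-G0 by −0.10 ± 0.42 each (SE of the fit). LPS-G0 differed from C-G0 by 0.15 ± 0.42. The differences from C-G0 were 0.35 ± 0.39 for C-G1 and 0.47 ± 0.39 for C-G2, and those of LPS-G1 from C-G1 and of LPS-G2 from C-G2 were −0.31 ± 0.39 and −0.43 ± 0.39. Over the 24 arrays, Vpreb3 and Igll1 had a Pearson correlation of 0.36 (Spearman 0.22), which was 0.07 without the 2 arrays farthest from the Igll1 median. The arrays share the reference, the slides and the groups.

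**Figure D3:**
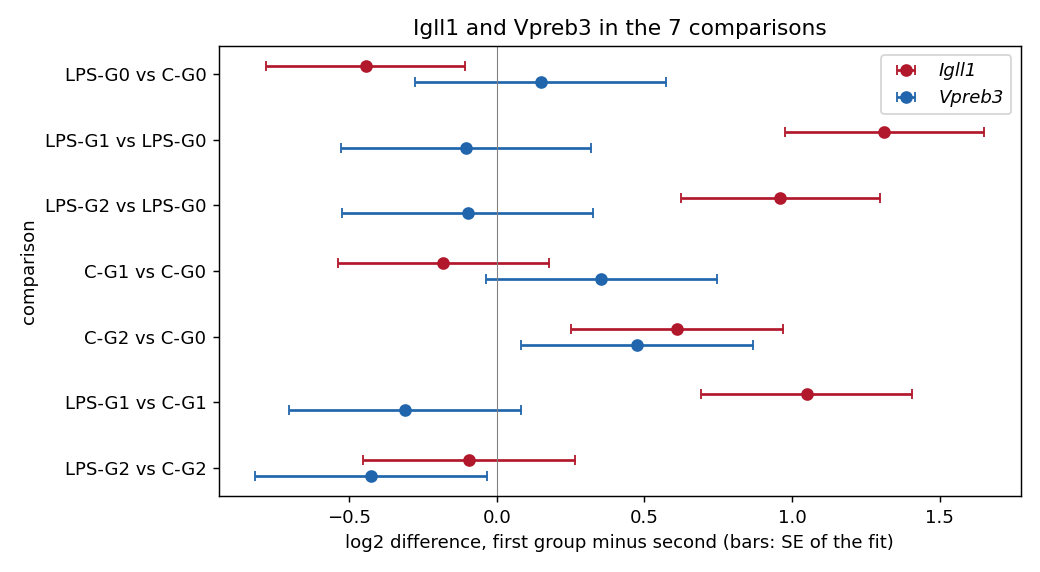
Log2 difference between group means (x axis) for Igll1 and Vpreb3 in the 7 comparisons (y axis), first group minus second; bars are the standard error of the fit. Igll1 lies at 1.31 and 0.96 in the comparisons of the beta-glucan diets with LPS-G0 and at 1.05 in LPS-G1 vs C-G1, and Vpreb3 lies between −0.43 and 0.47 in all 7.

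Vpreb1, the variable-like part of the surrogate light chain, was well above background on 1 slide only. Of the 7 arrays well above background in Cy3, 7 lay on slide 3, where the median Cy3 signal was 74.8. It was 38 on slide 1 and 11.6 on slide 2, and 0 of 8 arrays were well above background on either. On slide 3, the Cy3 signal was 52.2 in C-G0 and 77.1 in C-G1. It was 85.8 and 62.8 in C-G2. The LPS-G0 array gave 80.5, the LPS-G1 array 47.7, the only array of slide 3 that was not well above background, and the LPS-G2 arrays 72.5 and 81.2. No group was well above background on more than 2 of 4 arrays, and the group means of the log ratio ran from −1.15 ± 0.81 in C-G1 to −0.07 ± 0.63 in C-G0, whose arrays overlapped. Vpreb1 did not pass the filter on dim probes.

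Ebf1, the transcription factor that starts the B lineage program and switches on Igll1 and Vpreb1 in progenitors, was also detected mainly on slide 3. It was well above background on 6 of 8 arrays of slide 3 (median Cy3 signal 55.3), and on 1 of 8 arrays on each of slide 1 (16.6) and slide 2 (20.6). On 6 of those 8 arrays it was so on 1 of its spots only (a share of 0.5). The highest Cy3 signals were 68.5 in LPS-G0 replicate 4 and 61.6 in C-G1 replicate 2, and the lowest was 12 in LPS-G0 replicate 3. Mean log ratios ran from 0.77 ± 0.35 in C-G1 to −0.06 ± 0.68 in C-G0. The part of the slide in these values was not tested.

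**Figure D4:**
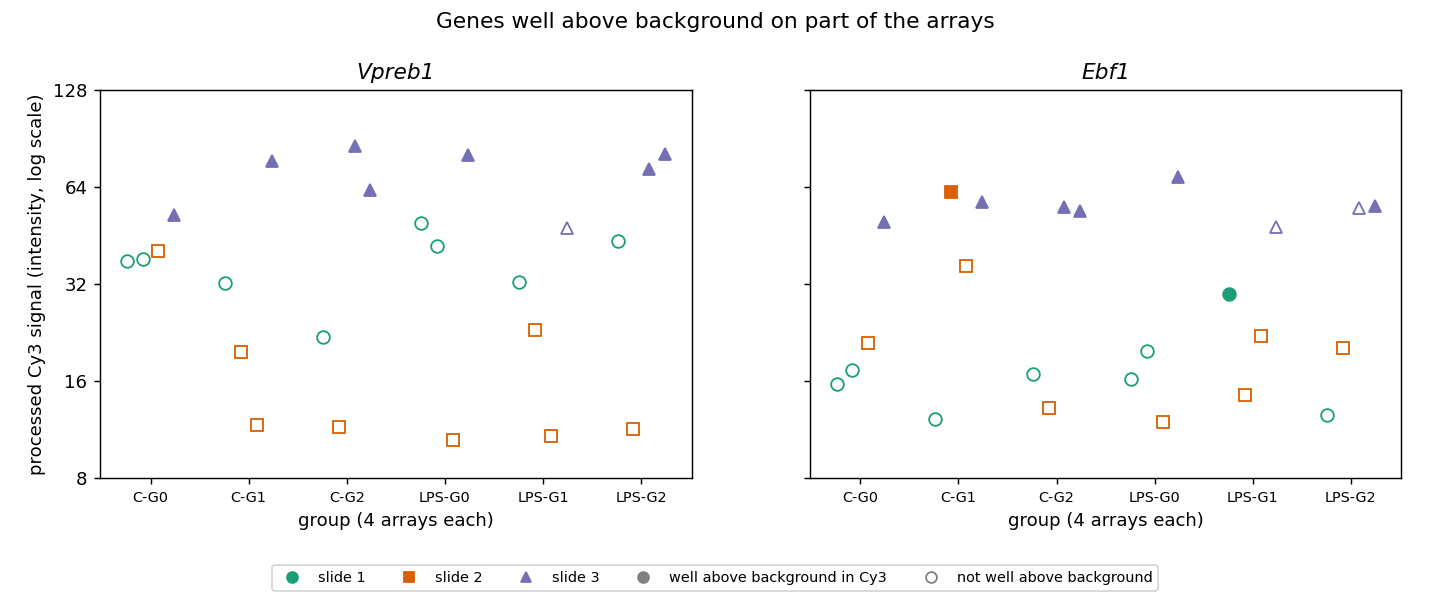
Processed Cy3 signal (intensity, log scale) of Vpreb1 (left) and Ebf1 (right) on each array by group, with slide as symbol and filled symbols for arrays well above background. For Vpreb1 7 of 7 filled symbols, and for Ebf1 6 of 8, are triangles of slide 3.

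The recombination genes could not be measured in this blood. The Cy3 signal of Rag1 ranged from 7.83 to 27.4, that of Rag2 from 10.3 to 32.8, and that of Dntt from 9.90 to 39.8. The deposited ratio of Rag1 was set to 0 on both spots on 16 of 24 arrays and on at least 1 spot on 23. For Rag2 these counts were 9 and 18. For Dntt it was set to 0 on 5 of 48 spots, 1 spot on each of 5 arrays, and those spots enter its group means, which ran from −0.34 ± 0.62 in LPS-G2 to 0.48 ± 0.33 in LPS-G1. Ratios of dim channels have no order, and no fold is given for these 3 genes. A low level of their RNA was not detectable on these arrays, which is not the same as absent.

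The reference table of RefSeq (build GRCr8) held a promoter for 7 of 7 genes, with Vpreb1 under its newer symbol Vpreb1a. The Igll1 promoter is shown because Igll1 carried the differences. It gives the 250 bases before the start used in the promoter table, on the plus strand at chr11:97642937-97643186 of GRCr8. The gene record begins at 97643059, so 128 of these bases lie inside it, and the windows of Vpreb3 and Ebf1 lie wholly inside their records. The sequence is shown with matches to the searched motifs in capitals.
Igll1 promoter: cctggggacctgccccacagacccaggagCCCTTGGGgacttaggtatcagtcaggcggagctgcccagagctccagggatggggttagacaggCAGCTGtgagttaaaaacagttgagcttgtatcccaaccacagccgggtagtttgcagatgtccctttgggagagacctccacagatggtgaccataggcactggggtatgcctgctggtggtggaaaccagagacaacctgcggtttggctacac

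Motifs were searched on both strands in windows of 250 bases before to 50 after the start, and none of the motifs contains another. CCCNNGGG, the core of the motif of early B cell factors, occurred in 2 of 7 promoters, those of Igll1 and Dntt, and in 12.7% of all 27457. CAGCTG, an E-box form, occurred in 2 of 7 (Igll1 and Rag1) and in 15.1% of all. CAGGTG, another E-box form bound by Tcf3 proteins, occurred in 3 of 7 (Vpreb1, Rag1 and Dntt) and in 18.7% of all. TATAAA occurred in 0 of 7 and in 14.3% of all. These are matches of letters only.

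Other B lineage genes were taken from 2 lists, and were tested with limma over all probes that passed the filter. The early B and pre-B list held 44 genes apart from the 7, of which 40 were found by name (Cd79a, Foxo1, Myb and Bach2 were not). Of these, 20 were well above background on all 24 arrays and 4, Id3, Irf4, Mme and Stat5b, on 0. The progenitor marker Cd34 was well above background on 2 arrays, and the adaptor Blnk on 13. The mature B list held 22 genes, of which 18 were found, 9 of them well above background on all 24 arrays. Genes that define B cells in blood were measured on all 24 arrays, with median Cy3 signals of 1414 for Cd79b, 1723 for Pax5 and 176 for Ms4a1, which encodes CD20.

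In LPS-G1 vs LPS-G0, 1 of 25 tested early B genes fell and 0 rose at an adjusted p under 0.05, beside 8.93% of all probes called. At an unadjusted p under 0.05, 1 was higher and 5 were lower, beside 26.9% of all probes. The gene that fell was Sox4, a transcription factor of progenitor cells, which lay between 0.16 and 0.32 in LPS-G0 and between −0.50 and −0.09 in LPS-G1. Its log2 difference was −0.52 ± 0.14 (SE, adjusted p = 0.0346, limma). The median log2 difference of the list was 0.08, against 0.06 over all probes tested.

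Of the mature B list, 1 of 11 tested genes rose and 0 fell in the same comparison, in which 0.543% of all probes rose and 8.39% fell, and 3 were higher and 1 lower at the unadjusted threshold. The one that rose was Cd40, the B cell receptor for T cell help, which lay between −0.81 and −0.48 in LPS-G0 and between −0.13 and 0.69 in LPS-G1. Its log2 difference was 1.01 ± 0.27 (adjusted p = 0.0328, limma). The median of the list was 0.49 and 9 of 11 differences were above 0. Both the Sox4 and the Cd40 call were lost on leaving out any 1 of 6 of the 8 arrays and with slide as a block (log2 differences −0.52 and 0.94, adjusted p = 0.0612 and 0.0618, limma), and kept without LPS-G0 replicate 3 or LPS-G1 replicate 1.

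The genes that pair with the surrogate light chain or mark the B lineage gave the following in LPS-G1 vs LPS-G0. Cd79b, the signalling partner in the pre-B cell receptor, differed by 0.60 ± 0.31 (adjusted p = 0.231, limma). Ms4a1 differed by 0.49 ± 0.35 (adjusted p = 0.364). Pax5, the factor that maintains B cell identity, differed by −0.38 ± 0.24 (adjusted p = 0.315), and the receptor Il7r by 0.23 ± 0.27 (adjusted p = 0.597). Ptcra, the T lineage counterpart of the surrogate light chain, fell by 0.68 on the log2 scale (SE 0.17, adjusted p = 0.0289), from 0.31 ± 0.20 to −0.37 ± 0.18. Leaving out single arrays removed that call for 6 of 8 arrays too.

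**Figure D5:**
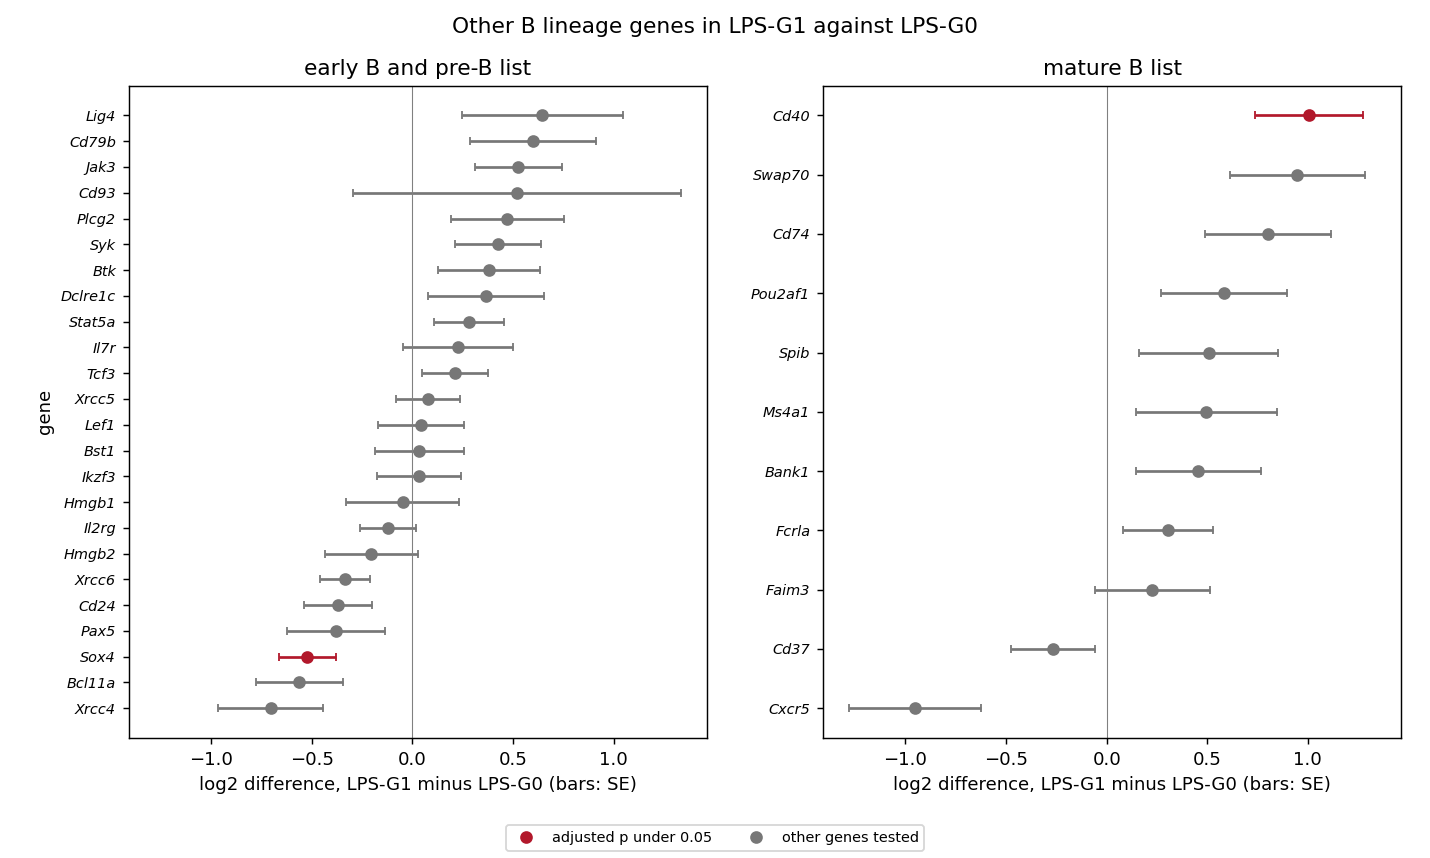
Log2 difference between LPS-G1 and LPS-G0 (x axis) of the tested genes (y axis) of the early B and pre-B list (left, all but 1 of 25 genes) and the mature B list (right, 11 genes); bars are the standard error of the fit and red marks an adjusted p under 0.05. Sox4 at −0.52 and Cd40 at 1.01 are the 2 genes in red.

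Blood carries other cells, and their marker lists stood as follows beside the Igll1 difference. The summed Cy3 signal of the 18 mature B genes ranged from 15964 to 23719 in LPS-G0. It ranged from 26191 to 38821 in LPS-G1, without overlap, and from 23292 to 44925 in LPS-G2, which overlapped LPS-G0. In C-G0 it ranged from 11575 to 40055. That of the 40 early B genes ranged from 47075 to 63307 in LPS-G0 and from 41216 to 59182 in LPS-G1. The summed signal of the 10 monocyte genes ranged from 39989 to 54338 in LPS-G0, below the ranges of LPS-G1 (64423 to 81459) and LPS-G2 (62335 to 96920). In C-G0 it ranged from 26527 to 79098, a range that covered every array of LPS-G0. Bright genes weigh most in such sums, as Lyz2 did among the monocyte genes (median Cy3 signal 61740) and Cd74 among the mature B genes (17560). Among the early B genes it was Il2rg (31430), so that sum is largely a reading of 1 gene. Gene by gene, the monocyte list had a median log2 difference of 0.11 in LPS-G1 vs LPS-G0, against 0.06 over all probes tested. In C-G1 the sums ranged from 30287 to 45644 for the mature B genes and from 73460 to 97058 for the monocyte genes. In C-G2 they ranged from 16920 to 36681 and from 50166 to 112330. Neutrophil genes, summed over 12, ranged from 10104 to 17120 in LPS-G0 and from 13602 to 35894 in LPS-G2. Of 6 tested, 5 were higher in LPS-G2 at the unadjusted threshold (0 adjusted, limma), beside 8.23% of all probes. Their median log2 difference was 0.66. The part of these lists in the Igll1 differences was not tested. Within each array, Igll1 minus Cd79b had a mean of −0.59 ± 0.14 for LPS-G0, 0.13 ± 0.25 for LPS-G1 and −0.14 ± 0.39 for LPS-G2 (log2, SD, n = 4). It was −0.14 ± 0.28 for C-G0, −0.89 ± 0.43 for C-G1, the lowest of the 6 groups, and 0.06 ± 0.42 for C-G2. The order of the groups depended on the gene subtracted. Igll1 minus Pax5 was lowest in LPS-G0 (−1.32 ± 0.35), with C-G1 at −0.26 ± 0.73 and LPS-G1 at 0.37 ± 0.70. Igll1 minus Ms4a1 was lowest in C-G0 (−1.10 ± 1.18), with LPS-G0 at −0.64 ± 0.34 and LPS-G1 at 0.18 ± 0.42.

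Among the other lists in LPS-G1 vs LPS-G0, 3 of 11 erythroid genes fell at an adjusted p under 0.05 (Gypc, Epb42 and Klf1, limma). So did 1 of 8 thymocyte genes (Ptcra), 1 of 9 NK and cytotoxic genes (Klrk1) and 1 of 8 cell division genes (Tpx2). Of all probes tested, 8.39% fell at that threshold. These 6 calls became 0 on leaving out any 1 of 6 of the 8 arrays, with Cy3 alone, with no filter on dim probes, with all 24 arrays in 1 fit or without LPS-G0 replicates 3 and 4. The count was 1 with slide as a block and 10 without LPS-G1 replicate 1. By limma, 0 passed of 11 T cell, 6 neutrophil, 6 monocyte, 9 platelet and 2 plasma cell genes. At the unadjusted threshold the counts were 0 T cell, 0 neutrophil, 2 monocyte, 2 platelet and 1 plasma cell gene, beside 26.9% of all probes. The summed signal of the erythroid list ranged from 1197484 to 1276914 in LPS-G0 and from 1131115 to 1247282 in LPS-G1.

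In the other 6 comparisons no gene of the early B or the mature B list passed an adjusted p of 0.05 in limma. In LPS-G0 vs C-G0, 1 of 25 early B genes was higher (Sox4, 0.46) and 1 lower (Il7r, −0.73) at the unadjusted threshold, and 1 of 11 mature B genes was lower (Ms4a1, −0.91), beside 15.2% of all probes at that threshold and 0.0097% at the adjusted one. In LPS-G2 vs LPS-G0, the DNA end joining gene Xrcc4 was lower by a log2 difference of −1.11, and Cd40 (0.85) and Cd74 (0.77) were higher, at the unadjusted threshold only, beside 8.23% of all probes there and 0% at the adjusted threshold. Cd79b differed by 0.51 ± 0.31 and Pax5 by −0.36 ± 0.24 in this comparison.

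In the rats without LPS, C-G1 vs C-G0 had 4 early B genes higher and 4 lower of 27, and 1 mature B gene higher of 11, at the unadjusted threshold, beside 27.9% of all probes there and 0.028% at the adjusted one. The progenitor factor Bcl11a (−0.88) had the lowest p of these. In C-G2 vs C-G0, 6 of 27 early B genes were lower, among them Il7r (−0.97), and 1 mature B gene was lower (Ms4a1, −0.68), beside 13.3% and 0.028%. LPS-G1 vs C-G1 had 1 early B gene at the unadjusted threshold (Bst1, −0.63), beside 2.81% of all probes there and 0.00934% at the adjusted threshold. LPS-G2 vs C-G2 had 0 genes of either list at either threshold, beside 1.09% and 0%.

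Whether LPS moved the list genes differently by diet was tested as an interaction in the fit of all 24 arrays. For G1 against G0, 0 of 27 early B and 0 of 11 mature B genes passed at either threshold (limma), with 0 of all 10708 probes at the adjusted and 322 at the unadjusted one. For G2 against G0, 0 passed at the adjusted threshold and Il7r (1.08 ± 0.43) and Ms4a1 (1.18 ± 0.45) at the unadjusted one, with 0 and 596 of all probes. The interaction of Igll1 and Vpreb3 was not tested.

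Finally, the genes with the pattern most like that of a surrogate light chain gene were sought among the 6506 genes detected in Cy3 on each of the 24 arrays. For Igll1 the highest Pearson correlations over 24 arrays were those of Iah1 (0.72, Spearman 0.68), Cd79b (0.72, Spearman 0.62) and the coronin gene Coro7 (0.70, Spearman 0.58). Without the 2 arrays farthest from the Igll1 median they were 0.73, 0.65 and 0.57. For Vpreb3 they were Gpi, a glycolytic enzyme (0.78, Spearman 0.69), Raver1 (0.73, Spearman 0.78) and Ly6e (0.73, Spearman 0.66), and without the 2 farthest arrays 0.68, 0.74 and 0.52. Other B lineage genes of the fixed set were spread. With Igll1 and Vpreb3 in turn, Pax5 correlated at −0.33 and −0.02, and Il7r at −0.09 and −0.004. Ms4a1 correlated at 0.26 and 0.31, and Blnk, well above background on 13 arrays, at 0.33 and 0.52. Cd79b correlated with Vpreb3 at 0.65. These are descriptions over arrays that share reference, slides and groups.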

How the data were processed

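Blood RNA of 24 rats (6 groups of 4) was hybridized on two-color arrays with a common reference in the other channel. By the file headers, the authors used Agilent Feature Extraction 10.10.1.1 (10.7.3.1 in the submitters' processing notes) to subtract background and balance the dyes. The deposited values are processed intensities per channel and the log10 ratio of Cy5 over Cy3, placed on rn4. The log10 ratios were turned to log2 of Cy3 over Cy5. Outlier spots were left out (679 to 1133 per array) and the spots of a probe averaged. A probe was tested if some group had all 4 of its arrays well above background in Cy3, which left 10313 probes for 16 arrays (C-G0 and the 3 LPS groups) and 10708 for 24. Of the 7 genes, Igll1 and Vpreb3 passed.

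The tests came from limma 3.58.1 (R 4.3.3) and were two-sided, with Benjamini-Hochberg adjustment over all probes tested. The 16 arrays gave the comparisons of LPS-G0 with C-G0, LPS-G1 and LPS-G2, and the 24 arrays the others. The brightest probe stood for a gene. The fit was tested on simulated data. Precision is limited by 4 arrays a group. The genes and lists were chosen with earlier results of these data known. Named genes are the 7, a fixed set of B lineage genes, list genes with the lowest p among those called, and the 3 most alike genes. Genes named at the unadjusted threshold were chosen after their values were seen. Replicate numbers were not used as pairs. 1 gene of the early B list counts in the totals and is not reported here.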

Additional observations from a re-analysis of the deposited data

Results flagged for a closer look

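The difference of Igll1 between LPS and control rats was 1.05 on the G1 diet, where all 4 LPS-G1 arrays lay above the C-G1 mean, and −0.44 on the control diet, where all 4 LPS-G0 arrays lay below the C-G0 mean, a gap of 1.49 on the log2 scale. The gap itself was not tested, and it contains the contrast of LPS-G1 with LPS-G0 for which Igll1 was chosen. On the control diet the direction was not shared by the slides (0.12, −0.49 and −1.53), and the difference was −0.11 without C-G0 replicate 4. In 24 sets of 4 arrays of a gene and group with no spot ratio set to 0, 0 had an array far from the other 3 by Dixon's criterion. These sets include dim ones of Vpreb1, Ebf1 and Dntt.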

How the results depend on the processing

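The differences of Igll1 and Vpreb3 moved by less than the SD between arrays under 206 of 208 alternative values, an SD larger than every Vpreb3 difference. The sign changed under 5 of 104 alternatives for Igll1 (in LPS-G2 vs C-G2 and C-G1 vs C-G0) and 5 of 104 for Vpreb3 (4 comparisons, such as LPS-G0 vs C-G0, −0.24 without C-G0 replicate 1). The 2 others were Igll1 with normexp and loess, at 0.54 for LPS-G1 vs LPS-G0 and 0.47 for LPS-G1 vs C-G1. That setting changes background correction, offset and normalization at once, and the cause was not tested. Leaving out single arrays gave Igll1 differences from LPS-G0 of 1.11 to 1.45 for LPS-G1 and 0.78 to 1.09 for LPS-G2. Neither gene was left when all arrays had to be well above background, and with 1 probe each the mean over probes changes nothing. Cy3 alone shifted the median of all probes to 0.12 in LPS-G1 vs LPS-G0.

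The calls of the lists in LPS-G1 vs LPS-G0 (1 early B and 1 mature B gene) depended on the setting. Both counts were 0 with Cy3 alone, with no filter on dim probes, with slide as a block, with all 24 arrays in 1 fit, without LPS-G0 replicates 3 and 4, and by one-way ANOVA with Tukey's HSD. They were 2 and 2 with normexp and loess, and 5 and 4 with array weights. Leaving out single arrays gave 0 to 2 early B and 0 to 3 mature B calls there, 0 to 2 and 0 to 4 in LPS-G0 vs C-G0, 0 to 3 early B calls in C-G1 vs C-G0 and 0 to 1 in C-G2 vs C-G0. Array weights gave 1 early B and 2 mature B calls in LPS-G0 vs C-G0.

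With the replicate block, LPS-G1 vs LPS-G0 had 1 early B and 2 mature B calls, and C-G1 vs C-G0 had 1 early B call. Every group holds each replicate number once, so this block cannot change a difference between groups. The Igll1 difference of 1.31 is therefore the same by design. Same-numbered arrays of different groups had a mean correlation of residuals of 0.11 and others −0.04. The number of the 4 pairs over 0.1 was 0 in LPS-G1 vs LPS-G0, 1 or 2 in 3 comparisons and 3 in C-G2 vs C-G0, LPS-G1 vs C-G1 and LPS-G2 vs C-G2 (highest 0.54). As no comparison had all 4, the numbers were not taken as pairs. Signal over background limits Vpreb1, Ebf1, Rag1, Rag2 and Dntt, for which no difference between groups of the size of that of Igll1 could be measured.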
